A study of Mus musculus with 2 samples.

Results

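The heat shock chaperones Hspa1a, Hspa1b, Hspa8, Hsp90aa1, Hsp90ab1, Dnajb1, Dnaja1, Hsph1, Hspd1 and Hspe1 were followed through the immune cells of the mouse spleen. These 10 genes, of 32285 in the count matrices, were taken by symbol, and the set was chosen by the summed UMIs of Hspa1a and Hspa1b, which had been seen to be higher across cell classes of the knockout library. The difference between genotypes in that pair is therefore described here without a test and supports nothing else. Spleen immune cells came from C57BL/6 mice, with 1 library of genotype WT and 1 library of genotype RPA1 conditional knockout (CKO). The protein RPA1 belongs to replication protein A, a complex that coats single-stranded DNA while it is copied or repaired. The labels give neither the Cre driver nor the deleted exons, and they do not say how many mice went into a library, their age or sex. Genotypes were not tested against each other, because each has 1 library, and a difference between the genotypes and one between the 2 preparations cannot be told apart.

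HSP70 proteins bind stretches of unfolded protein and release them in cycles of ATP hydrolysis. J proteins deliver the clients and start the hydrolysis, and HSP110 proteins such as Hsph1 help to exchange the nucleotide. HSP90 proteins take over clients such as kinases and steroid receptors for the last steps of folding, and the chaperonin of Hspd1 and Hspe1 folds proteins inside mitochondria. Heat shock factor 1 (Hsf1) switches on many of these genes by binding inverted repeats of the letters GAA in their promoters. Hspa1a and Hspa1b are the strongly inducible HSP70 genes, whereas Hspa8 is the HSP70 made in nearly all cells at rest. Hspa1a and Hspa1b, like the immediate early genes, are also known to be switched on in cells while a tissue is being dissociated.

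Promoters of 7 of the 10 genes were found in the RefSeq table for GRCm38.p6, and those of Hspa8, Hsp90aa1 and Hsp90ab1 were not. Hspa1a (ENSMUSG00000091971, chr17:34969190-34972156, minus strand, mm10) and Hspa1b (ENSMUSG00000090877, chr17:34956436-34959238, minus strand) lie 9951 bases apart. Their promoter windows of 300 bases are shown whole because both genes were higher in the same classes in the comparisons that follow. Capitals mark the only match in each window to the inverted repeats searched, GAANNTTC and TTCNNGAA. Each of these repeats reads the same on both strands, and they can overlap each other.
Hspa1a, chr17:34972107-34972406, minus strand: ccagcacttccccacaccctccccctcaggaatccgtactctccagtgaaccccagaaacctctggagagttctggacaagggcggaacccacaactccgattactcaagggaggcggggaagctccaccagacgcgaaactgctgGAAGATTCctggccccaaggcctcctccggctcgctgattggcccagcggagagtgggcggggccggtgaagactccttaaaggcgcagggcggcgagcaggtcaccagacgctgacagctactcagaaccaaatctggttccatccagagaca
Hspa1b, chr17:34959189-34959488, minus strand: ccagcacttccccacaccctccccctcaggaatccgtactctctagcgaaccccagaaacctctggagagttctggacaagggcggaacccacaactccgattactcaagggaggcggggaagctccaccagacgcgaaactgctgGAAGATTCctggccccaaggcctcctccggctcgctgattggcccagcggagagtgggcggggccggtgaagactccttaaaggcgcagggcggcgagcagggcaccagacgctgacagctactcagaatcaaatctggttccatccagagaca
The windows were identical at 296 of 300 positions (98.7%). Counted from 1 at the 5′ end, with Hspa1a as the reference, the differences were C44T, T47C, T249G and C276T. The shared match, GAAGATTC, began 104 bases before the annotated start in both genes.

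Shorter windows of the promoters with matches in Hspe1, Dnaja1 and Hsph1 show how the same letters were arranged in other members. The Hspe1 window is the reverse complement of the Hspd1 one, because these genes are read outwards from a shared region and their gene models overlap by 112 bases.
Hspe1 and Hspd1, chr1:55088039-55088096, shown on the plus strand: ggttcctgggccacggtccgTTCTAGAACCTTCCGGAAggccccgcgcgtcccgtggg
Dnaja1, chr4:40722324-40722371, plus strand: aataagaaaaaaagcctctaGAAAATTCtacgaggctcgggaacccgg
Hsph1, chr5:149636329-149636389, minus strand: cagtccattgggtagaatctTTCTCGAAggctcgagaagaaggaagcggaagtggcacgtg
The Hspe1 window held 3 overlapping repeats in a row, that of Dnaja1 held 1, and the Hsph1 one shown held 1. No match was found in the promoters listed for Dnajb1. Over the 12 promoters of the 7 genes, 7 (58.3%) held at least 1 repeat, against 15.1% of 32851 promoters of the same length. An unbroken run of both repeats, overlapping in the GAA or TTC they share, was in 4 of the 12 promoters (those of Hspd1, Hspe1 and Hsph1), against 0.603% of all. Several of these promoters are not separate cases, and the shares count some matches more than once. The Hspe1 promoter and the Hspd1 promoter with matches overlap by 285 bases. Those listed for Hsph1 overlap each other, and those of Hspa1a and Hspa1b are nearly identical. These matches describe letters in a window and not binding.

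Hspa1a and Hspa1b code for nearly the same protein, so reads could in principle be split between them. In the last 500 bases of their transcripts, from which 3′ tags are mostly taken, 0 of 411 windows of 90 bases were shared, while 162 of 911 (17.8%) were shared in the last 1000 bases of Hspa1b. Counts of the pair are given separately and as a sum. How reads that fit both genes were counted is not given in the sources used here, so the sum may also miss some.

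The WT library held 13291 barcodes and 84240951 unique molecular identifiers (UMIs, tags that count each captured RNA molecule once), and the CKO library 12958 barcodes and 76910129 UMIs. After filters and removal of doublets, 11285 WT and 11317 CKO cells remained, with a median of 5334 and 4499 UMIs. The libraries shared 36 barcodes. Rpa1 was at 37.3 CPM (the share of a gene in all UMIs, scaled to 1000000) in the WT and 33.6 CPM in the CKO library, and its 3′ tags check the knockout only if the deletion removes or destabilises that end. By class, Rpa1 ran from 14.4 to 52.5 CPM in WT and from 7.88 to 49.5 CPM in CKO cells, and it was higher in the CKO library among monocyte-gated and transitional B-gated cells. Cells were placed by a gate of marker genes, and 8 classes had at least 50 cells in both libraries: CD4 T (1204 WT and 278 CKO cells), CD8 T (1164 and 73), NK (291 and 750), follicular B (3635 and 4616), marginal zone B (574 and 740), transitional B (356 and 678), monocyte (132 and 191) and neutrophil (61 and 56). Of the marker genes kept out of the gate, Gzma, Prf1, Klrd1, Klra8 and Nkg7 summed to 17445 and 17905 CPM in NK-gated cells. Lyz2, Cebpb, Fcgr3, Cybb and Ctss summed to 22809 and 24760 CPM in monocyte-gated cells. That list was nearly as high in neutrophil-gated cells, at 22625 and 21564 CPM, so it does not separate monocytes from neutrophils. In monocyte-gated cells the gate's own T cell list summed to 12.6 and 3.11 CPM and its B cell list to 46.4 and 38.6 CPM. Cd3e, Ncr1 and Eomes were at 0 in both libraries. The gate allows at most 1 T, B or NK marker in such a cell, so these low values are fixed in part by the gate. Of the genes kept out of the gate, the T cell list summed to 22.3 and 3.73 CPM there and the B cell list to 257 and 254 CPM. Among the gate's own lists, those of related myeloid cells were higher than the T and B cell lists. The 7 conventional dendritic cell markers summed to 246 and 188 CPM and the 8 neutrophil markers to 88.0 and 99.5 CPM, beside 4135 and 4098 CPM of the monocyte list. The part of other cells in the results was not tested. Of the monocyte-gated cells, 42 lay in a cluster led by Ccnd1, Tbc1d4 and Cd209a. In NK-gated cells the gate's 8 monocyte markers, of which it allows at most 1 in a cell, summed to 353 and 358 CPM. Csf1r, Clec4a1, Cd300e, Adgre4 and F13a1 were at 0 in both. Levels below are sums over the cells of a class in CPM, and ratios are CKO over WT. Their 95% intervals cover counting error only, not differences between mice.

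Hspa1a and Hspa1b, the inducible HSP70 genes, were highest in monocyte-gated cells in both libraries and higher in the CKO library in most classes. In monocyte-gated cells Hspa1a stood at 79.3 CPM in WT (82 UMIs) and 241 CPM in CKO cells (388 UMIs), a ratio of 3.04 (2.39 to 3.91). Hspa1b stood there at 45.5 CPM (47 UMIs) and 180 CPM (290 UMIs), a ratio of 3.97 (2.91 to 5.52). Both genes were thus several-fold higher in the CKO monocytes, with 47 to 388 UMIs behind each value. As a sum, the pair had 129 and 678 UMIs, 125 CPM (104 to 148) in WT and 422 CPM (391 to 455) in CKO monocytes, a ratio of 3.38 (2.80 to 4.11).

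Among B cells the counts were far lower, but the CKO library was again higher. In follicular B-gated cells the pair stood at 4.25 CPM in WT (73 UMIs) and 10.2 CPM in CKO cells (215 UMIs), a ratio of 2.41 (1.84 to 3.18). Marginal zone B-gated cells had 5.15 CPM (25 UMIs) and 15.9 CPM (97 UMIs), a ratio of 3.09 (1.97 to 5.01). Transitional B-gated cells had 3 and 15 UMIs, and the interval of their ratio of 2.65 (0.75 to 14.3) included 1. Hspa1b alone had a ratio of 2.74 (1.96 to 3.89) in follicular B and 3.70 (2.05 to 7.14) in marginal zone B cells, and Hspa1a had 1.85 (1.16 to 3.02) and 2.32 (1.14 to 5.10). In marginal zone B cells, 63.6% of the 11 WT Hspa1a UMIs came from 1 cell. After each cell was thinned to 1000 UMIs, the marginal zone B pair ratio was 0.87, with 6 WT and 8 CKO cells holding a UMI. These were 1.05% (0.38 to 2.26) and 1.08% (0.47 to 2.12) of the cells, too few to place the ratio closely.

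NK-gated cells had the largest ratio because the pair was almost absent in WT. Hspa1a gave 1 UMI in WT and 19 in CKO cells (0.739 and 5.59 CPM), a ratio of 7.57 (1.20 to 314). Hspa1b gave 0 UMIs in the 291 WT cells and 69 in the 750 CKO cells (20.3 CPM), at least 9.16-fold higher when 3 counts over the WT class are taken as the limit that a count of 0 allows. The sum was at 0.739 CPM (0.019 to 4.12) in WT and 25.9 CPM (20.8 to 31.9) in CKO NK cells, and the ratio of 35.0 (6.13 to 1400) rests on the single WT UMI. When cells took the majority gate of their cluster the NK ratio was 5.25, and after thinning it was 7.32.

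In T cells the pair rested on few CKO cells and the ratio moved with the way cells were chosen. CD4 T-gated cells had 8.18 CPM of the pair in WT (67 UMIs in 47 cells) and 16.8 CPM in CKO cells (28 UMIs in 11 cells), a ratio of 2.06 (1.28 to 3.25). The share of CD4 T cells with a UMI of the pair was nearly the same, 3.90% and 3.96%, and 25.0% of the CKO UMIs came from 1 cell. For Hspa1a alone that cell held 63.6% of the 11 CKO UMIs, beside a ratio of 3.19 (1.35 to 7.22), and Hspa1b had a ratio of 1.68 (0.91 to 2.96). Thinned to 1000 UMIs, the pair ratio in CD4 T cells was 0.93, with 13 WT and 3 CKO cells holding a UMI. These were 1.08% (0.58 to 1.84) and 1.08% (0.22 to 3.12) of the cells, too few to place the ratio closely. In CD8 T-gated cells the pair stood at 9.32 CPM (87 UMIs) and 9.99 CPM (5 UMIs), and the interval of the ratio, 1.07 (0.34 to 2.60), reached from a drop to a rise of more than 1.5-fold. When cells took the majority gate of their cluster, the CD8 T ratio was 3.16 (2.26 to 4.38) on 106 and 60 UMIs, and the stricter gate left 12 WT and 0 CKO UMIs and gave no ratio. Neutrophil-gated cells held 1 UMI of the pair in WT and 0 in CKO, a level of at most 3.94 CPM by the limit of 3 counts.

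**Figure D1:**
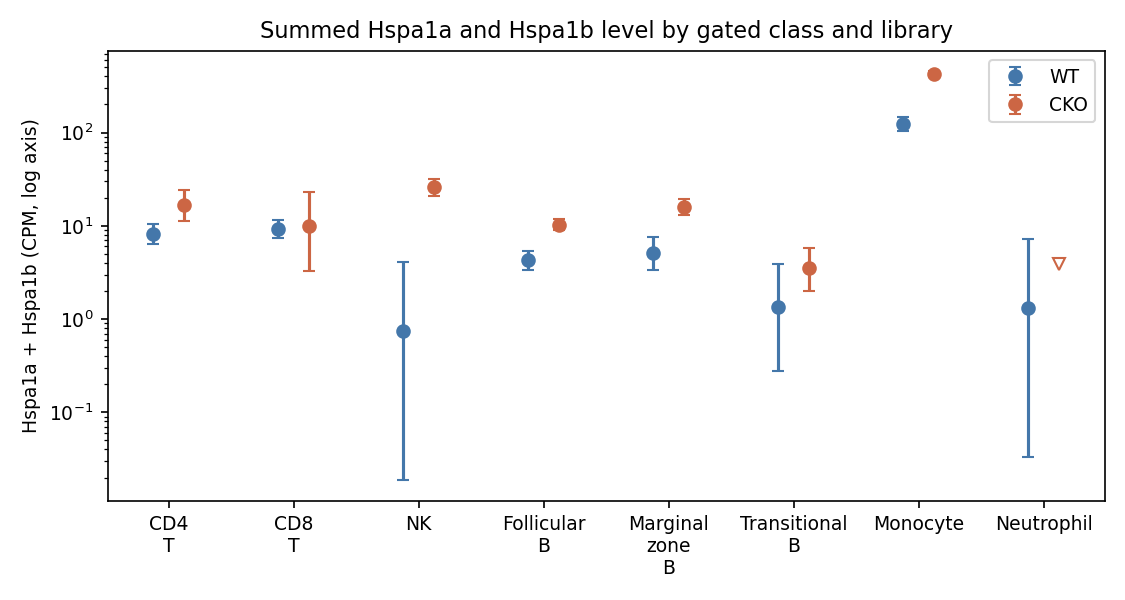
Summed Hspa1a and Hspa1b level (CPM, log axis) in each gated class of the WT library (blue) and the CKO library (orange). Bars are exact Poisson 95% intervals of counting error, and the open triangle marks the limit of 3 counts for CKO neutrophils, which had 0 UMIs. Monocytes lie highest in both libraries (125 and 422 CPM), and the intervals of WT and CKO overlap in CD8 T, transitional B and neutrophil cells.

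The order of the classes was not the same in the 2 libraries. In WT the pair was highest in monocyte-gated cells (125 CPM), then in CD8 T (9.32), CD4 T (8.18), marginal zone B (5.15) and follicular B cells (4.25), then transitional B (1.34), neutrophil (1.31) and NK cells (0.739). Below monocytes, the intervals of all neighbours in this WT order overlapped. In the CKO library the order was monocyte (422 CPM), NK (25.9), CD4 T (16.8), marginal zone B (15.9), follicular B (10.2), CD8 T (9.99), transitional B (3.55) and neutrophil (0). There the intervals of neighbours overlapped except between monocyte and NK cells and between marginal zone and follicular B cells. NK-gated cells were last in WT and next after monocytes in CKO. No test of this change of place was made.

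Within the monocyte gate the difference lay both in how many cells held the transcripts and in how many UMIs these cells held. At least 1 UMI of the pair was found in 27 of 132 WT cells (20.5%, exact Clopper-Pearson interval 13.9 to 28.3) and in 93 of 191 CKO cells (48.7%, 41.4 to 56.0). At least 5 UMIs were found in 6.82% (3.16 to 12.5) and 23.6% (17.7 to 30.2) of the cells, and at least 20 UMIs in 1 WT and 8 CKO cells. The median monocyte depth was 7676 UMIs in WT and 7920 UMIs in CKO, and after thinning to 1000 UMIs the shares were 8.0% (3.90 to 14.2; 7 cells too shallow) and 28.9% (22.5 to 35.9; 4 cells too shallow). No UMI of either gene was found in 51.3% of the CKO monocytes, while the richest held 46. In follicular B cells the shares with at least 1 UMI were 1.43% and 3.12%, and after thinning 0.496% and 1.13%, at median depths of 4333 and 4078 UMIs. Among these B cells, 1 in WT and 3 in CKO reached 5 UMIs, and the 1% of cells with the most UMIs of the pair held 79.5% and 54.9% of them.

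**Figure D2:**
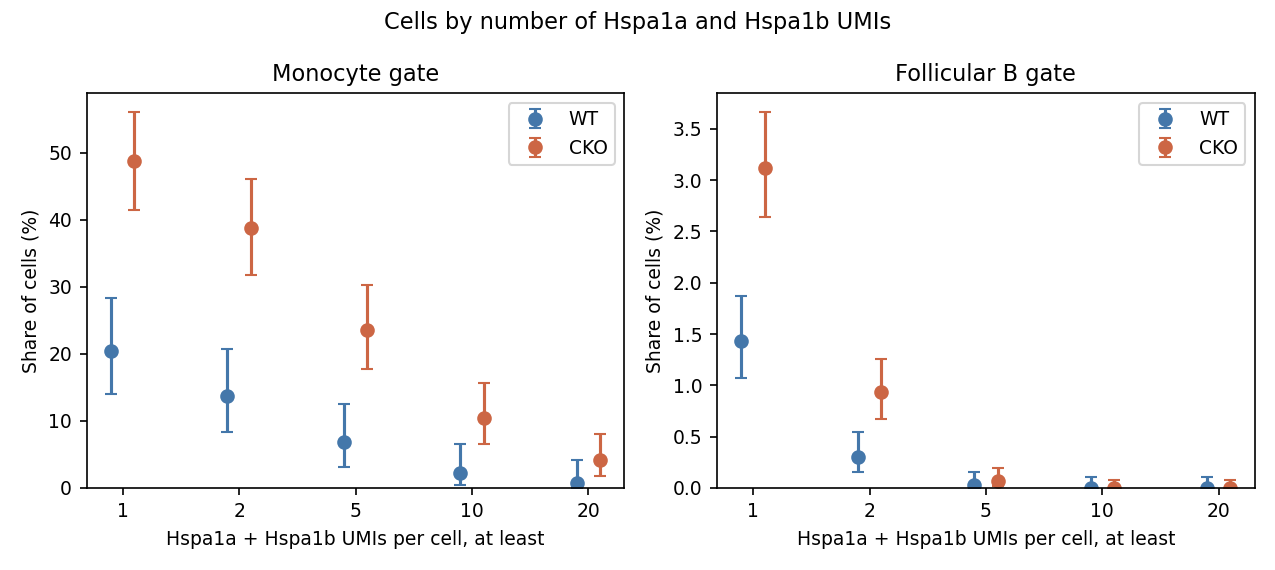
Share of monocyte-gated (left) and follicular B-gated (right) cells with at least 1, 2, 5, 10 or 20 UMIs of Hspa1a and Hspa1b together, in the WT (blue) and CKO (orange) libraries. Bars are exact Clopper-Pearson 95% intervals, and the vertical scales of the panels differ. In the monocyte gate 48.7% of CKO cells against 20.5% of WT cells held at least 1 UMI, and few B cells held more than 2.

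Depth, subset and stress state of the monocytes were looked at with splits chosen after the data were seen. In monocytes of the lowest, middle and highest range of UMIs per cell the pair ratio was 4.95, 3.40 and 2.63, and each interval lay above 1. Of the clusters, 1 held at least 50 monocyte-gated cells of each library, 96 WT and 160 CKO cells, and there the pair stood at 83.3 and 455 CPM, a ratio of 5.46 (4.19 to 7.24), above the 3.38 of the whole gate. Monocytes with a Ly6c2 UMI, a marker of the classical inflammatory subset, had 85.8 and 292 CPM, a ratio of 3.41 (2.52 to 4.69). Those without one had 175 and 697 CPM, a ratio of 3.98 (3.11 to 5.15), so the CKO level was higher in both subsets. Cells with a UMI of Fos, an immediate early gene, had 133 and 494 CPM, a ratio of 3.71 (3.0 to 4.64), and cells without one had 103 and 261 CPM, a ratio of 2.53 (1.68 to 3.93). In the CKO monocytes thinned to 1000 UMIs, Fos was found in 48.6% (31.4 to 66.0) of the 35 cells with Hspa1a and in 24.3% (17.8 to 32.0) of the 152 without. Hspa1b was likewise found in 37.1% (21.5 to 55.1) and 12.5% (7.70 to 18.8) of these cells, whereas Hspa8 was found in 77.1% and 73.0%.

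Clustering gave a wider view of the myeloid cells than the gate. The 4 clusters whose gated cells were mostly monocytes or conventional dendritic cells, a grouping chosen after the data were seen, held 279 WT cells (2.47%) and 373 CKO cells (3.30%). In the cluster led by Ccnd1, Tbc1d4 and Cd209a, 169 cells had no gate. Another cluster, of 17 WT and 15 CKO cells, had Hba-a2, Hbb-bs, Vcam1, C1qa and C1qb among its leading genes. Neutrophil-gated cells lay outside these clusters. The 4 clusters carried 351 of 725 pair UMIs in WT (48.4%) and 1473 of 2274 in CKO (64.8%). Their level was 132 and 431 CPM, a ratio of 3.27 (2.90 to 3.68). All other cells had 5.52 and 13.2 CPM, a ratio of 2.38 (2.10 to 2.70), so the pair was also higher outside the myeloid clusters. Conventional dendritic cells, too few for the class comparisons (21 and 19 cells), stood at 151 and 401 CPM.

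Levels in lymphocytes were set beside those of Lyz2, the lysozyme gene of myeloid cells, whose UMIs in lymphocytes can come from free RNA. In the CKO myeloid clusters there were 50387 Lyz2 UMIs to 1473 of the pair, whereas CKO follicular B cells had 240 Lyz2 UMIs to 215 of the pair. Put as a share of the myeloid level, Lyz2 reached 0.0944% in WT and 0.0774% in CKO follicular B cells, and the pair 3.22% and 2.37%. CKO NK cells had Lyz2 at 0.0758% and the pair at 6.00% of the myeloid level. Ms4a6c, another gene of the monocyte list, was at 1.42% in CKO follicular B cells and 1.16% in CKO NK cells, while Csf1r was at 0.0883% and 0. In WT NK cells the pair was at 0.560% of the myeloid level. The part of free RNA in the pair's level in lymphocytes was not tested.

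The makeup of the pair differed between the myeloid clusters and all other cells. UMI counts of 3′ tags are not scaled by transcript length, so the split is a share of molecules. Hspa1a made up 66.1% (60.9 to 71.0) of the pair UMIs in WT and 59.4% (56.8 to 61.9) in CKO myeloid clusters. In all other cells it made up 26.5% (22.1 to 31.3) in WT and 33.7% (30.4 to 37.1) in CKO. Follicular B cells had 37.0% (26.0 to 49.1) and 28.4% (22.5 to 34.9), and CKO NK cells 21.6% (13.5 to 31.6). Conventional dendritic cells of the gate had 41.7% (27.6 to 56.8) of 48 UMIs in WT and 64.4% (54.2 to 73.6) of 101 UMIs in CKO, so the larger Hspa1a part of the myeloid clusters was not seen in their WT cells. The WT marginal zone B share was 44.0% (24.4 to 65.1).

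**Figure D3:**
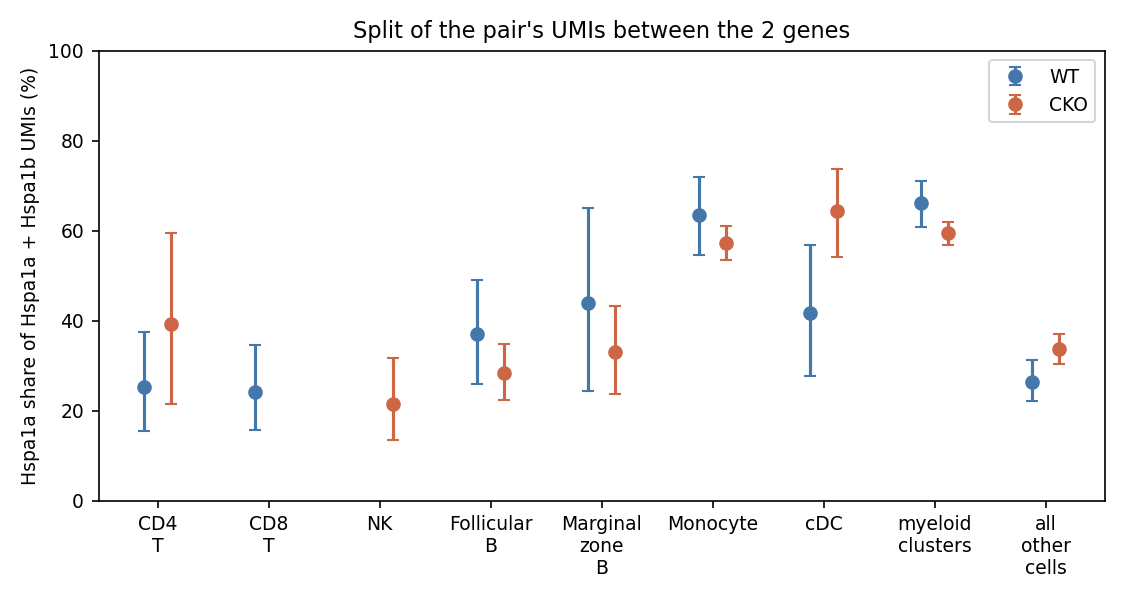
Share of Hspa1a among the summed UMIs of Hspa1a and Hspa1b (%) in gated classes, in the myeloid clusters and in all other cells, for the WT (blue) and CKO (orange) libraries. Bars are exact Clopper-Pearson 95% intervals, and groups with under 20 UMIs of the pair are not drawn. The myeloid clusters lie at 66.1% and 59.4%, and all other cells at 26.5% and 33.7%.

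Hspa8, the constitutive HSP70 gene (chr9:40800984-40810087, plus strand), was modestly higher in the CKO library. In follicular B cells it stood at 671 CPM in WT and 819 CPM in CKO, a ratio of 1.22 (1.19 to 1.25). In CD4 T cells the levels were 957 and 1149 CPM, a ratio of 1.20 (1.14 to 1.26), and in monocytes 1345 and 1624 CPM, a ratio of 1.21 (1.13 to 1.29). The interval lay above 1 in 6 of the 8 classes and included it in CD8 T (1.05) and marginal zone B cells (1.01). The marginal zone B interval (0.97 to 1.05) lay below those of follicular B cells, CD4 T cells and monocytes. The inducible pair made up 3.28% and 8.04% of the UMIs of all 10 genes in WT and CKO monocytes, and at most 0.73%, in CKO NK cells, in any other class.

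The HSP90 genes differed by less than 1.5-fold in all classes but neutrophils. Hsp90ab1, the constitutive cytosolic HSP90 (chr17:45567775-45573271, minus strand), had levels of 1419 and 1549 CPM in follicular B cells, a ratio of 1.09 (1.07 to 1.11). In the other classes its ratio ran from 0.90 in neutrophils to 1.31 (1.23 to 1.39) in monocytes, where it stood at 1415 and 1850 CPM. Hsp90aa1, the more inducible cytosolic HSP90 (chr12:110690605-110702728, minus strand), had 357 and 382 CPM in follicular B cells, a ratio of 1.07 (1.04 to 1.11). It was lower in CKO CD4 T cells, at 351 and 327 CPM, with a ratio of 0.93 (0.85 to 1.02) whose interval included 1. In monocytes Hsp90aa1 had 314 and 466 CPM, a ratio of 1.48 (1.30 to 1.70), with 14.5% of the CKO UMIs in 1 cell. In the wider myeloid clusters its ratio was 0.99 (0.90 to 1.08), so the monocyte value did not extend to them. Neutrophils had 102 and 158 CPM, a ratio of 1.54 (1.15 to 2.08), which turned to 0.74 (0.58 to 0.94) with no cell filter and was 0.90 (0.18 to 4.20) on 5 and 4 UMIs after thinning.

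Dnaja1 was the only member whose interval lay above 1 in all 8 classes. It encodes a J protein that works with cytosolic HSP70 (chr4:40722150-40737149, plus strand). The levels were 334 and 477 CPM in CD4 T cells, a ratio of 1.43 (1.32 to 1.55), and 372 and 468 CPM in CD8 T cells, a ratio of 1.26 (1.10 to 1.43). Follicular B cells had 220 and 273 CPM, a ratio of 1.24 (1.19 to 1.29). T cells therefore held more Dnaja1 than B cells in both libraries. The smallest ratio was 1.15 (1.06 to 1.25) in marginal zone B and the largest 1.71 (1.25 to 2.36) in neutrophils, with 1.53 (1.29 to 1.82) in monocytes. In the stricter gate with 3 own markers and none of another lineage it was 1.13 in monocytes and 1.02 in NK cells. Over all cells outside the myeloid clusters the Dnaja1 ratio was 1.07 (1.05 to 1.09), below the value of every class. The CKO library held fewer T-gated cells, in which the gene is higher, so a library-wide level and a level within classes compare different mixtures.

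Dnajb1, the J protein most tied to the inducible HSP70, was close to its WT level in most classes. It lies at chr8:83608193-83612653 on the plus strand. In monocytes it stood at 43.5 and 41.05 CPM, a ratio of 0.94 (0.64 to 1.41). Follicular B cells had 42.7 and 49.8 CPM, a ratio of 1.17 (1.06 to 1.28), and in NK cells 55.4 and 60.6 CPM, a ratio of 1.09. The interval lay above 1 in follicular B and transitional B cells (1.34, 1.03 to 1.77) and included it in the other 6 classes. In the wider myeloid clusters its ratio was 1.38 (1.07 to 1.80).

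Hsph1, the HSP110 chaperone that serves HSP70 as a nucleotide exchange factor (chr5:149614287-149636376, minus strand), was higher in several CKO classes. In monocytes it stood at 18.4 and 47.9 CPM, a ratio of 2.61 (1.56 to 4.56), and in the myeloid clusters at 23.0 and 36.6 CPM, a ratio of 1.59 (1.16 to 2.20). Follicular B cells had 27.7 and 41.2 CPM, a ratio of 1.49 (1.33 to 1.66), and in transitional B cells 31.2 and 45.2 CPM, a ratio of 1.45 (1.10 to 1.93). After the inducible pair this was the largest ratio of any member in follicular B cells. CD4 T cells had 39.5 and 50.5 CPM, a ratio of 1.28 (0.99 to 1.63), and NK cells 40.7 and 40.6 CPM. Hsph1 was at 0 in the neutrophils of both libraries.

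The mitochondrial chaperonin genes lay near their WT level in most lymphocytes. Hspd1, the barrel subunit (chr1:55077835-55088243, minus strand), stood at 140.6 and 140.4 CPM in follicular B cells. It had 190 and 177 CPM in CD4 T cells, a ratio of 0.93, and 275 and 254 CPM in marginal zone B cells, a ratio of 0.92 (0.86 to 0.99). Hspe1, the lid subunit (chr1:55088132-55091307, plus strand), had 369 and 371 CPM in follicular B cells, a ratio of 1.01. In marginal zone B cells it had 583 and 546 CPM, a ratio of 0.94 (0.89 to 0.99), the same direction as its partner. In transitional B cells Hspd1 had 152 and 187 CPM, a ratio of 1.23 (1.08 to 1.40), and Hspe1 a ratio of 1.06. In monocytes both were higher in CKO: Hspd1 had 115 and 180 CPM, a ratio of 1.56 (1.26 to 1.95), and Hspe1 had 241 and 327 CPM, a ratio of 1.36 (1.17 to 1.59). There 21.8% of the CKO Hspd1 UMIs and 14.3% of the Hspe1 UMIs came from 1 cell each. In the myeloid clusters the ratios were 0.995 (0.86 to 1.15) and 0.87 (0.80 to 0.95), so the monocyte difference was not seen in the wider set of cells. The gene models overlap and the use of strand in counting is not given in the sources used here.

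**Figure D4:**
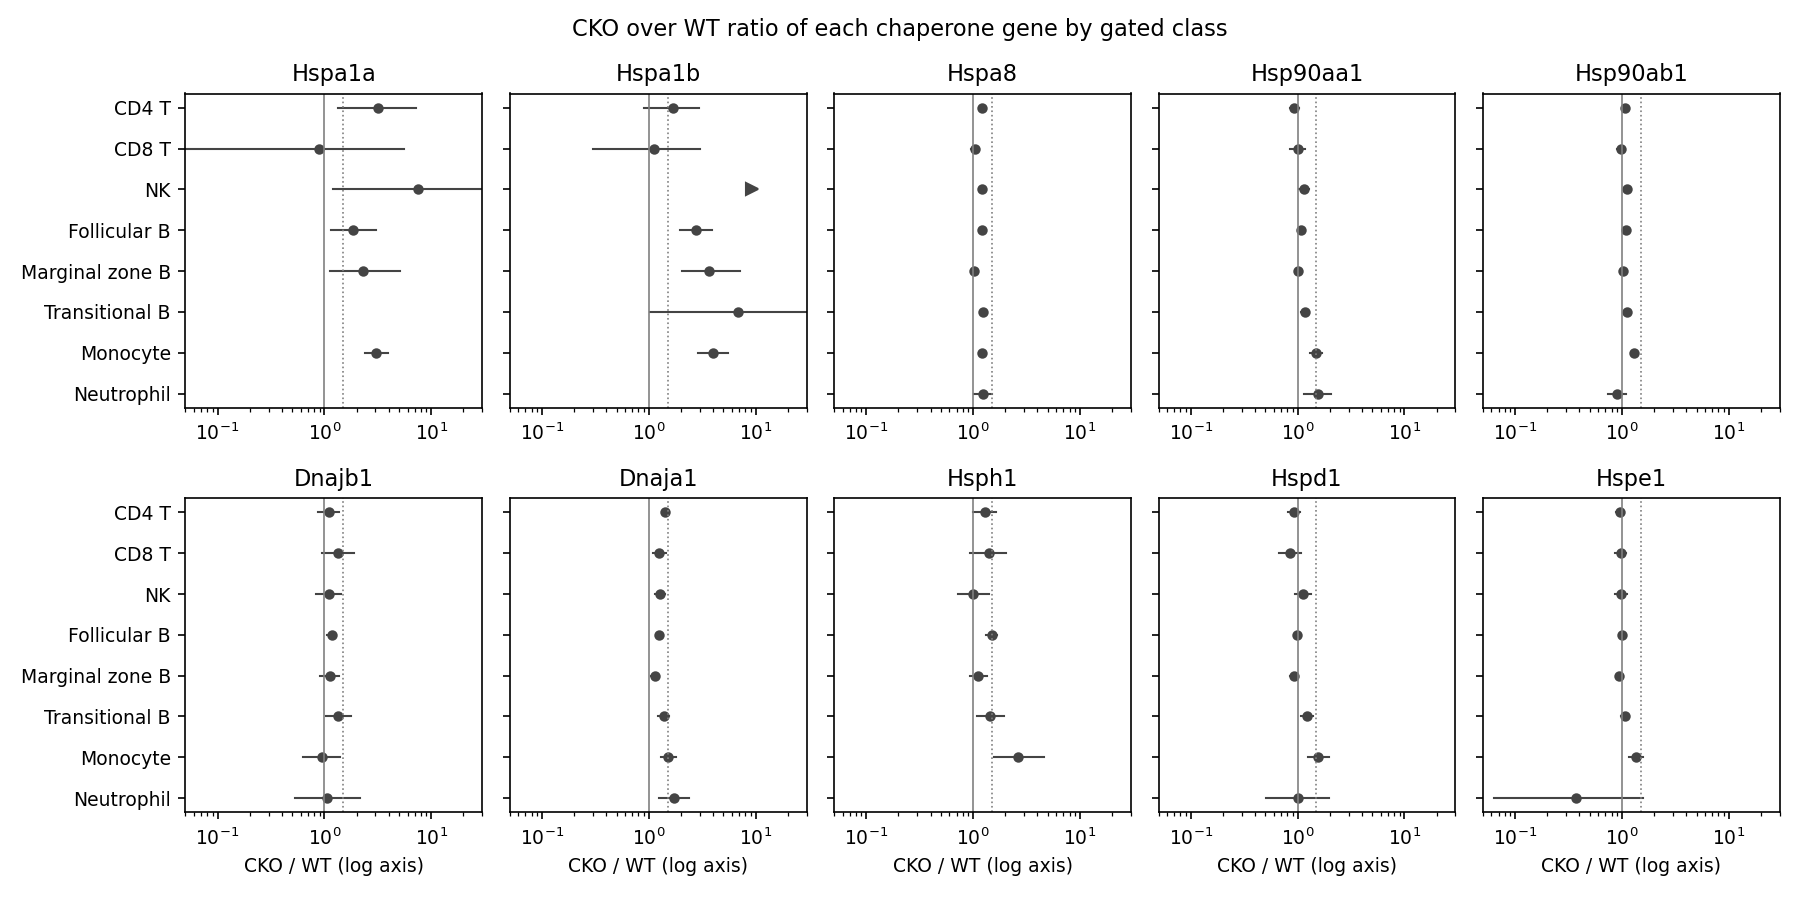
CKO over WT ratio (log axis) of each chaperone gene in 8 gated classes, with exact 95% intervals of counting error. The solid line marks equal levels and the dotted line 1.5-fold, the triangle is a lower bound, a class without a point had at most 3 UMIs in both libraries, and some Hspa1a and Hspa1b intervals run past the axis. Dnaja1 lies above 1 in all 8 classes, and Hspd1 lies between 0.85 and 1.23 in the 6 lymphocyte classes.

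At a fixed size of 1.5-fold, with at least 20 UMIs summed over both libraries, 74 of 80 pairs of a class and a gene could be read. Of these, 15 were higher in CKO and 0 were lower. In follicular B cells 2 of 10 members were higher, Hspa1a and Hspa1b, against 3.23% of all genes with that minimum. The same pair made up the 2 of 10 in CD4 T cells (6.47% of all genes), in NK cells (6.89%) and in marginal zone B cells (5.28%). In CD8 T cells 0 of 10 were higher (12.9% of all genes), and in transitional B cells 0 of 8 (7.65%), where Hspa1a and Hspa1b were under the minimum. Monocytes had 5 of 10 higher, Hspa1a, Hspa1b, Dnaja1, Hsph1 and Hspd1, against 8.04% of all genes. In neutrophils 2 of 6 were higher, Hsp90aa1 and Dnaja1 (11% of all genes), and Hspa1a, Hspa1b, Hsph1 and Hspe1 were under the minimum. The share of genes at least 1.5-fold lower was 9.82% in CD4 T, 12.5% in CD8 T, 5.28% in NK, 3.12% in follicular B, 3.41% in marginal zone B, 3.4% in transitional B, 7.19% in monocyte and 10.1% in neutrophil cells. Of the 15 calls, 10 were Hspa1a or Hspa1b, for whose difference the set was chosen, and nothing is read from them.

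Several calls sat close to 1.5. Just inside were Dnaja1 in monocytes (1.53), Hsp90aa1 in neutrophils (1.54, with the turn of direction given above) and Hspd1 in monocytes (1.56). The stricter gate ended all 3 calls, with 1.13, 1.15 and 1.12. Just outside were Hsph1 in follicular B (1.49) and transitional B cells (1.45) and Hsp90aa1 in monocytes (1.48). Hspa1a and Hspa1b set the choice of the genes, so medians are given for the other 8 members. Their median log2 ratio was 0.17 in follicular B cells, against 0.03 over all genes, 0.12 against 0.01 in CD4 T cells and 0.50 against 0.01 in monocytes. It was 0.04 in CD8 T cells, against 0.04 over all genes, and 0.02 in marginal zone B cells, against 0.03. The monocyte median leaned on few cells. The richest 1% of CKO monocytes held 21.9% of Hsp90aa1, 14.9% of Hsp90ab1, 32.9% of Hspd1 and 20.2% of Hspe1 UMIs. In the wider myeloid clusters the ratios of these genes were 0.99, 1.04, 0.995 and 0.87. Those of Hspa8, Dnajb1, Dnaja1 and Hsph1 ran there from 1.21 to 1.59. With the pair included the follicular B, CD4 T and monocyte medians were 0.25, 0.20 and 0.59, a difference that the choice of the pair fixes in part.

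The rest of the chaperone network was described with 10 further lists. The shares of all genes past 1.5-fold given above stand beside their counts too, and other gates and filters were not tried on these lists. The lists of heat shock factors and of other HSP70 genes showed no common shift. Hsf1, the factor itself, stood at 24.6 and 29.6 CPM in follicular B cells, a ratio of 1.20 (1.06 to 1.36), and at 24.2 and 27.7 CPM in CD4 T cells, a ratio of 1.15 (0.81 to 1.59). Of the 7 heat shock factors and regulators that could be read in follicular B cells, 0 were at least 1.5-fold higher or lower. In CD4 T cells it was 1 of 6, Hsf2, while Ier5, an activator of Hsf1, had 112 and 87.8 CPM, a ratio of 0.78 (0.65 to 0.93). Hspa4, a relative of Hsph1, had 162 and 181 CPM in follicular B cells, a ratio of 1.11 (1.06 to 1.17). Hspa4l had a ratio of 1.42 (0.97 to 2.03) in CD4 T cells.

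The partners of HSP90 stayed within 1.5-fold in lymphocytes, apart from Ahsa2 in CD8 T and Stip1 in transitional B cells. Of 19 co-chaperones read in CD4 T cells 0 passed that size, with St13, which links HSP70 and HSP90, at 131 and 185 CPM (1.41, 1.24 to 1.61) and the immunophilin Fkbp4 at 76.5 and 105 CPM (1.38, 1.16 to 1.63). Follicular B cells also had 0 of 19, with Ahsa2, related to an activator of the HSP90 ATPase, at 16.8 and 23.6 CPM (1.40, 1.21 to 1.63). Stip1, which joins HSP70 to HSP90, had 45.2 and 56.3 CPM there (1.25, 1.14 to 1.36). In monocytes 2 of 19, Fkbp5 and Unc45a, were higher, and in neutrophils 2 of 15, Fkbp5 and Chordc1. Of the other J proteins 0 of 20 in follicular B cells passed 1.5-fold, with Dnajc1 at 1.14 (1.04 to 1.26) and Dnajc3 at 0.87 (0.79 to 0.95), and in CD4 T cells only Dnaja4 of 21 did, on the lower side. In the remaining classes Dnajb2 was lower in CD8 T cells, Dnajb14 was higher in NK cells, and in neutrophils 3 of 15 were lower, Dnajc7, Dnajc14 and Dnajc21. Among nucleotide exchange factors and BAG proteins, Bag4 had a ratio of 1.45 (1.01 to 2.04) in CD4 T cells and 0.95 (0.82 to 1.09) in follicular B cells, and Bag5 had 1.14 (1.02 to 1.27) in follicular B cells. Bag3, a cochaperone gene that answers to heat shock, was the only 1 of 9 past 1.5-fold in CD4 T cells, and it was lower in CKO. Calls of this list went both ways in other classes. Bag2 and Sil1 were higher and Grpel2 lower in CD8 T cells, and Sil1 was higher in NK cells. Bag2 was lower in marginal zone B and higher in transitional B cells, and Bag4 was lower in monocytes.

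Chaperones outside the HSP70 and HSP90 systems differed in direction between the classes. The cytosolic chaperonin TRiC with prefoldin had 0 of 15 genes past 1.5-fold in CD4 T, CD8 T, NK, follicular B, marginal zone B, transitional B and monocyte cells, and 2 of 14 higher in neutrophils, Pfdn1 and Pfdn4. Pfdn5, a prefoldin subunit, stood at 590 and 530 CPM in follicular B cells (0.90, 0.87 to 0.92) and at 509 and 440 CPM in CD4 T cells (0.86, 0.80 to 0.93). Of 18 genes for chaperones of the endoplasmic reticulum and the unfolded protein response, 0 passed that size in follicular B cells. In CD4 T cells 2 were lower, Sdf2l1 and Herpud1, the latter at 42.3 and 27.1 CPM (0.64, 0.46 to 0.87). Hspa5, the HSP70 of the endoplasmic reticulum, had 309 and 239 CPM there (0.78, 0.70 to 0.86), the opposite direction to the cytosolic Hspa8. Of the oxidative stress genes in CD4 T cells, Prdx1 had 248 and 194 CPM (0.78, 0.69 to 0.88) and 0 of 6 passed 1.5-fold. In CD8 T cells 1 of these 18, Pdia4, was higher. In neutrophils 5 of 15 genes of the endoplasmic reticulum list were higher, Calr, Pdia6, Sdf2l1, Manf and Atf4, against 11% of all genes. The median log2 ratio was 0.44 and the sums were 1025 and 1393 CPM, on 61 WT and 56 CKO cells.

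The immediate early genes were not higher as a group in the CKO library. In monocytes their summed level was 5418 CPM in WT and 5066 CPM in CKO, and of 18 genes 0 were at least 1.5-fold higher and 3 were lower, Jun, Egr1 and Ier3. The follicular B sums were 4314 and 4260 CPM, with 0 of 17 past 1.5-fold in either direction. There Fosb stood at 168 and 118 CPM (0.70, 0.66 to 0.74) and Egr1 at 48.6 and 67.4 CPM (1.39, 1.27 to 1.51). In CD4 T cells Nr4a1, a gene switched on by antigen receptor signals, had 24.9 and 41.5 CPM (1.67, 1.25 to 2.20), and Cd69 had 141 and 95.7 CPM (0.68, 0.57 to 0.80). Neutrophils had 5 of 14 lower and 0 higher. Within single CKO monocytes, as given above, Fos was found in 48.6% of those with Hspa1a and 24.3% of those without. For WT monocytes, thinned alike, these shares were 28.6% of 7 and 20.3% of 118 cells. In thinned CKO follicular B cells Fos was found in 0% (0 to 24.7) of 13 and 11.2% of 4599 cells. The interval of the 13 cells included the share of the others, so no direction is read. Jun was found in 61.5% (31.6 to 86.1) and 15.8% (14.7 to 16.9) of these B cells. The part of tissue handling in the pair's level was not tested.

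**Figure D5:**
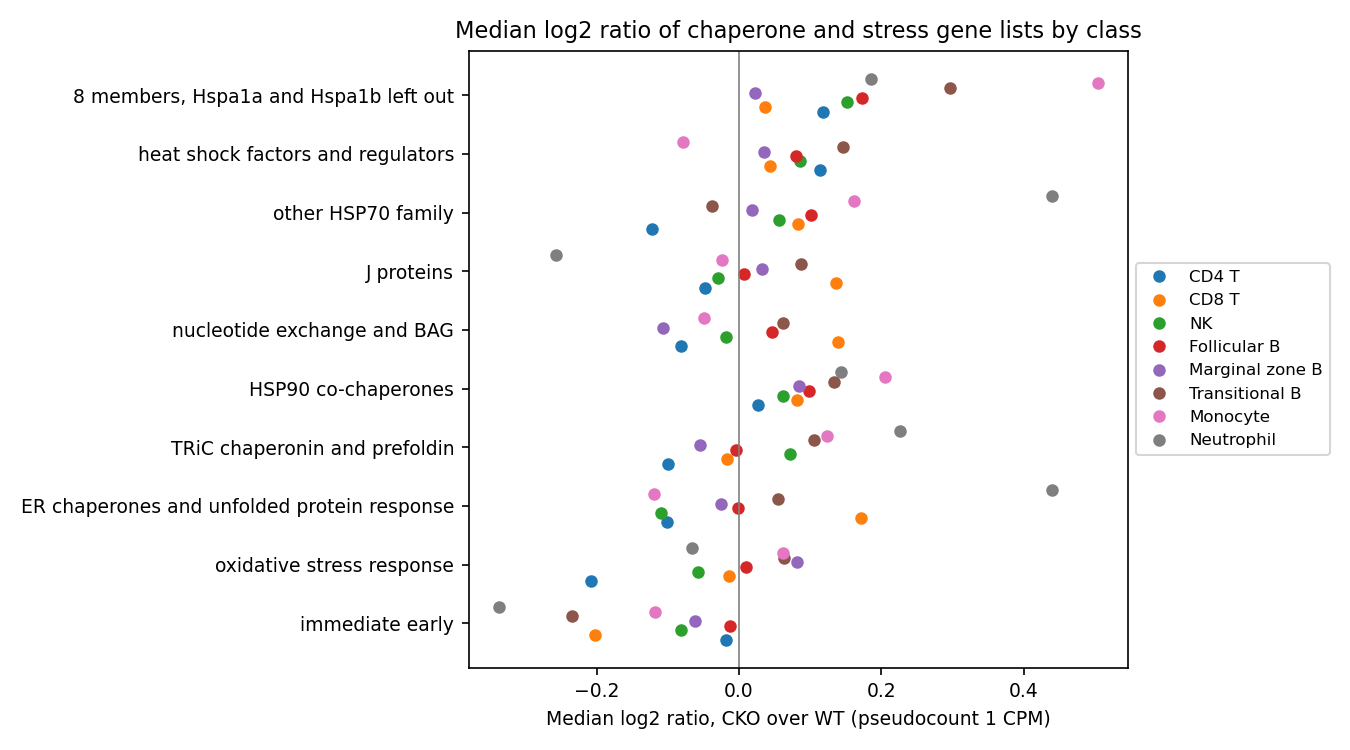
Median log2 ratio, CKO over WT (log2 of CPM plus 1), of the 8 members other than Hspa1a and Hspa1b and of the further gene lists in each gated class, with 1 point per class and a list drawn where at least 5 of its genes had 20 UMIs. The 8 members lie between 0.02 in marginal zone B cells and 0.50 in monocytes, and the immediate early genes lie below 0 in all 8 classes. The richest 1% of CKO monocytes held from 14.9% to 32.9% of the UMIs of Hsp90aa1, Hsp90ab1, Hspd1 and Hspe1.

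The genes whose level followed the pair most closely over the 16 points of 8 classes and 2 libraries were Nagpa and Usp45 (Pearson r of 0.92 each), Zdhhc9 (0.89), Psma7 (0.88) and Dr1 (0.88), among 8273 genes compared. Of the other members, Hspa8 came nearest at 0.74, in place 250, and Hsp90ab1 was at 0.48, Hsph1 at 0.44, Dnaja1 at 0.36 and Dnajb1 at 0.32. The points share 2 libraries and the 2 monocyte points lie far above the rest, and no more is read from them.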

How the data were processed

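Droplet 3′ RNA libraries of spleen immune cells, 1 WT and 1 CKO, were read from the deposited matrices. Per the file headers their values are raw UMI counts, and the authors applied no scaling to them. Cell Ranger 6.0.2 stands in these headers, whereas mm10, Seurat 4.0.3 and Cell Ranger 5.0.0 stand in the submitters' processing notes. Cells with 200 to 6000 genes and under 10% mitochondrial UMIs were kept (12679 WT and 12610 CKO). Doublets were scored with Scrublet (scanpy 1.11.5), and scores at or above the quantile of an expected 0.8% per 1000 cells were removed (1394 and 1293 cells). A class needed 2 own marker genes with a UMI and at most 1 of any other lineage, and plasma cells needed 3. These class names are not the authors' own, and the choice of markers alone can make values differ from theirs. Clusters used 2000 variable genes, 30 principal components, 15 neighbours and Leiden resolution 1 (leidenalg 0.10.2).

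UMIs were summed per class and library. Levels carry exact Poisson and ratios exact conditional binomial 95% intervals (scipy 1.17.1), shares exact Clopper-Pearson ones. A count of 0 was set to a floor of 3 counts over the class, which gives a bound (a lower bound was called only as higher, an upper bound only as lower), and no ratio was given where both libraries had at most 3. List medians used log2(CPM + 1) over genes with at least 20 summed UMIs. The calculation was tested on simulated data. All 10 members were named. Of each further list, up to 2 genes with the largest ratio among those with at least 20 CPM were named in CD4 T and in follicular B cells, and genes past 1.5-fold elsewhere were named after their values were seen. Promoters came from RefSeq, gene positions from the GENCODE annotation of mm10. The members and lists were chosen with earlier results of these data known. Alternatives changed the cell filter, doublets, gate, total, weighting of cells, depth and richest cells.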

Additional observations from a re-analysis of the deposited data

Results flagged for a closer look

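The chaperonin genes differed in opposite directions in 2 classes. Hspd1 had a CKO over WT ratio of 0.92 (0.86 to 0.99) in marginal zone B cells and 1.56 (1.26 to 1.95) in monocytes, and Hspe1 had 0.94 (0.89 to 0.99) and 1.36 (1.17 to 1.59). The difference between the classes was not tested, since each genotype has 1 library. In monocytes, 21.8% of the CKO Hspd1 UMIs came from 1 cell.

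Cells that fell into no gate, 690 in each library and in no comparison of classes, held Hspa1a and Hspa1b at 33.8 CPM (29.2 to 38.9) in WT and 129 CPM (120 to 138) in CKO, a ratio of 3.81 (3.25 to 4.49). In the cluster led by Lyz2, Fn1 and Csf1r, 89 cells had no gate, beside 256 with the monocyte gate. The cells removed by the filters or the doublet rule had 14.5 and 46.5 CPM.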

How the results depend on the processing

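Under 10 alternatives, 653 of 795 values moved by less than their counting interval, 135 moved by more and 7 were counted as changed in direction. A change of direction was counted only for ratios past 1.5-fold in the main setting. Smaller ratios that crossed 1 are among the 653 or the 135. Another 22 had a count of 0 in 1 library and gave only a bound and no ratio, among them the pair in CD8 T cells with the stricter gate and after thinning (0 CKO UMIs) and Hspa1a in NK cells without the richest 1% (0 WT UMIs). After thinning to 1000 UMIs, CD4 T cells had ratios of 0.87 for Hspa1a, 0.96 for Hspa1b and 0.93 for the pair, and marginal zone B cells 0.65 for Hspa1b and 0.87 for the pair. Such thinned ratios rest on few cells, as given above for the pair. Hsp90aa1 in neutrophils was 0.74 with no cell filter and 0.90 thinned. For the pair, the stricter gate gave 2.34 in monocytes, and the majority gate of the cluster 3.16 in CD8 T, 5.25 in NK and 6.59 in marginal zone B cells. Thinning gave 4.95 in monocytes. Leaving out the 1% of cells with the most UMIs of the pair gave at least 5.72 in NK (43 CKO UMIs against 0), and 5.29 in follicular B, 5.87 in marginal zone B cells and 4.16 in monocytes. That 1% held a larger share of the pair UMIs in WT than in CKO in each of these classes. In follicular B cells it held 79.5% and 54.9%, so leaving it out raised the ratio by construction. Cells without a Fos UMI, chosen after the data were seen, gave 8.23 in marginal zone B cells and 2.53 in monocytes. The cause of the other shifts was not tested. Calls at 1.5-fold numbered 15, 9 with the stricter gate, which also left fewer pairs to read (64 of 74), and 10 to 18 otherwise. In monocytes and follicular B cells the pair ratio stayed above 1 under all 10. No paired analysis was possible because each genotype has 1 library and the labels carry no replicate numbers. With 73 CKO CD8 T cells and 56 CKO neutrophils, depth limits what these classes can show.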

Other observations

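Of the genes linked to the Y chromosome, Ddx3y was at 79.5 and 82.8 CPM and Uty at 23.0 and 22.0 CPM in the WT and CKO libraries, while Eif2s3y was at 81.7 and 18.4 CPM. Xist gave 6 and 5 UMIs. The cause of the lower Eif2s3y level in the CKO library was not tested.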
